A study of Mus musculus with 6 samples.

Results

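Inflammatory chemokines and their receptors were examined in the RNA of mouse inguinal lymph nodes, the nodes that lie in the fat of the groin. The genes were taken by symbol: Ccl, Cxcl, Cx3cl, Xcl, Ccr, Cxcr or Cx3cr followed by a number, with a read in at least 1 library of the deposited table. These are CC, CXC, CX3C and XC chemokines and their receptors. Left out were 14 genes that are mostly homeostatic or belong to other cell programmes. Some of these also act in inflammation, such as the ligand Ccl5 and the neutrophil receptor Cxcr2, and the set does not cover them. The platelet chemokines Pf4 and Ppbp, named otherwise, fell outside the pattern. The set also holds epithelial and mucosal genes, such as Ccl25, Ccl27a, Ccl28, Ccr9 and Ccr10. Of 56 gene names that fit the pattern, 13 were among those left out and 5 (Ccl21b, Ccl21d, Ccl26, Ccl27b and Cxcl15) had 0 reads in all 6 libraries. That left 38 genes, 27 ligands and 11 receptors, of the 50559 in the table. A count of 0 allows up to 3 reads, or 0.200 to 0.230 CPM in a single library, and covers counting error only.

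The 6 samples are lymph nodes of Mus musculus, 3 labelled Control and 3 from mice fed naringin, a flavanone glycoside of grapefruit, at a daily 200 mg/kg mixed into their food. The strain, genotype, sex and age of the mice, the length of feeding and what the Control mice ate were not given in the sources used here. No label says that the libraries of a group come from separate animals, so p-values measure only the spread among these libraries, which may be technical. Between 13074180 and 14976422 reads per library were assigned to genes, and levels are in CPM, the reads of a gene per 1000000 reads of its library.

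Chemokines are small secreted proteins that direct white blood cells along gradients by way of G protein-coupled receptors. Homeostatic chemokines place lymphocytes in the compartments of a lymph node at rest. Inflammatory chemokines are induced by interferons, microbial products and cytokines, and draw monocytes, neutrophils, natural killer cells and effector T cells to a site or into a draining node.

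The inflammatory chemokine and receptor genes kept in the set had no shared direction with naringin. Of the 27 genes whose mean reached 1 CPM, 15 had a higher and 12 a lower mean log2 level with naringin, where 56.7% of all genes tested had a higher one, and their median log2 fold was 0.037, against 0.025 over all 14873 genes tested. The largest gains in mean were those of Ccl20 and Cxcl10, and the most regular was that of Ccl12. The receptor Cxcr3 was lower in each naringin library than in every control library. None of these differences passed the threshold.

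Levels were compared as log2(CPM + 1) with limma, a linear model that shares the variance estimate among genes, and p-values were adjusted over all genes tested by the Benjamini-Hochberg method. At an adjusted p under 0.05 limma called 0 of the 27 genes, and 0% of all genes. At an unadjusted p under 0.05 limma had 3 of the 27 higher (Ccl12, Ccl20 and Cxcl10), where 0.975% of all genes tested were, and 0 lower, where 0.457% were. Tests on the recovered reads also called 0 of the 27 at the adjusted threshold: edgeR had 2 higher and 0 lower at an unadjusted p under 0.05 (1.04% and 0.524% of all genes), and DESeq2 3 higher and 0 lower (1.01% and 0.518%). Without Control 2, Naringin 1 or Naringin 2, limma had 0 higher genes at that p, and without Control 1 it had 5. Over all genes tested, leaving out single libraries moved the 145 higher genes to between 46 and 400 and the 68 lower genes to between 26 and 993. In 1 of the 27 genes every naringin value lay above every control value, and in 1 every value lay below, next to 3.36% and 2.29% of all genes tested.

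**Figure D1:**
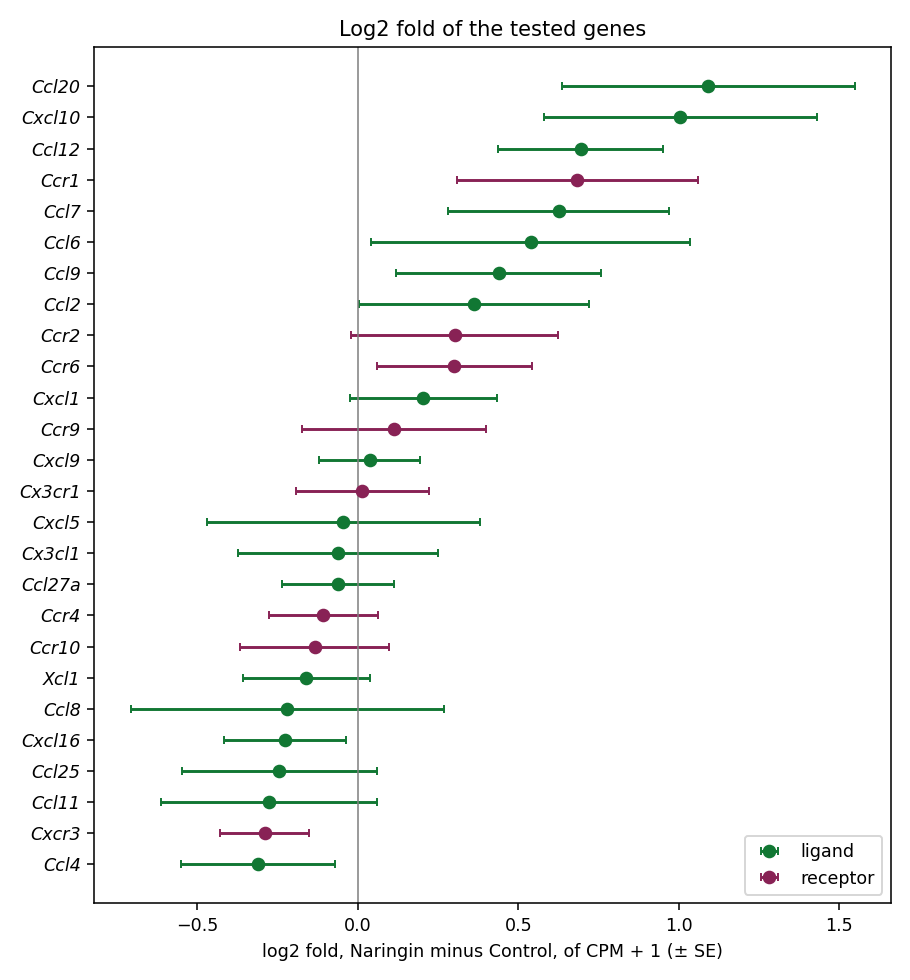
The horizontal axis gives the log2 fold (Naringin minus Control, on log2(CPM + 1)) of 26 of the tested genes with limma's standard error, ligands in green and receptors in purple. Ccl20 and Cxcl10 lie farthest to the right, near 1, and Ccl4 and Cxcr3 farthest to the left, near -0.3.

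Single libraries stood apart from their group. Control 3 was the lowest library in 36.6% and the highest in 24.0% of all genes tested. Among the 27 chemokine genes, Naringin 1 was the highest library in 14, against 19.4% of all genes, and Control 2 the lowest in 10, against 12.1% of all genes. The median deviation of the 27 genes from their own mean was 0.44 in Naringin 1 and -0.24 in Control 2 on the log2 scale, and from -0.17 to 0.12 in the other 4 libraries. The summed level of 10 monocyte and macrophage markers was 2883, 2994 and 4977 CPM in Control 1, 2 and 3, and 4632, 3833 and 2649 CPM in Naringin 1, 2 and 3. T cell markers (7 genes) summed to 1442 to 1517 CPM in Control and 1141 to 1467 CPM with naringin, and B cell markers (6 genes) to 3050 to 3372 and 3002 to 3826 CPM, and both lymphocyte types were thus present in every library. Markers of high endothelial venules (5 genes; 499 to 712 CPM in Control, 750 to 846 with naringin) and of red blood cells (5 genes; 32.1 to 49.6 and 55.2 to 58.8 CPM) had sums that did not overlap between groups. They are named because the sums of all the other marker lists examined overlapped, such as those of dendritic cells, plasma cells, mast cells, adipocytes and platelets. How often lists of this size separate in these data was not computed. Among the venule markers only the mucin Glycam1 did not overlap, with means of 228 ± 59.6 and 404 ± 67.6 CPM (SD), and the other 4 did. Their part in the results was not tested. In such bulk tissue, fewer cells of a type and less RNA per cell cannot be told apart.

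**Figure D2:**
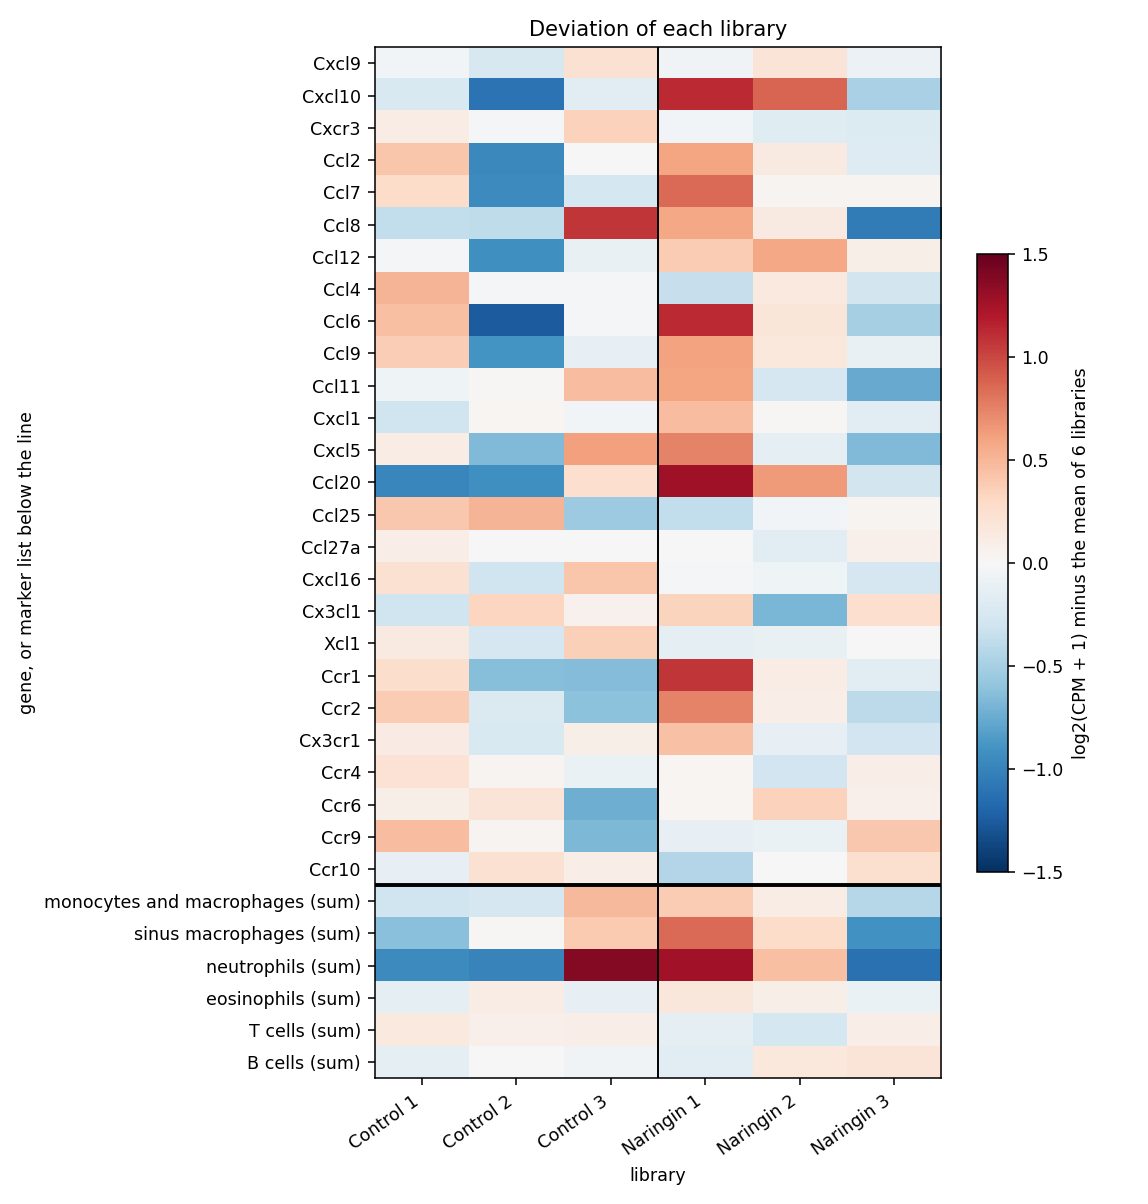
Each cell shows how far a library (columns) lies from the mean of the 6 libraries on log2(CPM + 1), for 26 of the tested genes and, below the line, for the summed markers of 6 cell types. Naringin 1 is red and Control 2 blue for most ligands of CCR1 and CCR2, while the macrophage and neutrophil sums are highest in Control 3 and Naringin 1.

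The chemokines Cxcl9, Cxcl10 and Cxcl11 are induced by interferons and share the receptor CXCR3, which is carried by type 1 helper T cells, effector CD8 T cells and natural killer cells. Cxcl10 stood at 17.0, 8.75 and 17.6 CPM in Control 1, 2 and 3, and at 44.7, 37.5 and 14.0 CPM in Naringin 1, 2 and 3. Naringin 1 and 2 were thus above all controls, and Naringin 3 lay inside the control range. The means were 14.5 ± 4.96 and 32.1 ± 16.0 CPM (SD, n = 3 each). The log2 fold was 1.00 with a standard error of 0.43 (limma unadjusted p = 0.0451, adjusted p = 0.9996). The fold was 1.50 without Naringin 3, 0.70 without Naringin 1 and 0.70 without Control 2.

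Cxcl9, which lies beside Cxcl10 on chromosome 5 with 1 coding gene between them in RefSeq's GRCm38.p6, had similar levels in both groups. It stood at 59.1, 51.5 and 71.9 CPM in the controls and at 59.0, 70.0 and 57.3 CPM with naringin, a log2 fold of 0.037 ± 0.16 (SE) whose sign turned to -0.0059 under upper-quartile scaling. Within each library, Cxcl10 reads per Cxcl9 read came to 0.287, 0.170 and 0.245 in Control 1, 2 and 3, against 0.757, 0.535 and 0.244 in Naringin 1, 2 and 3. Naringin 3 had almost the same ratio as Control 3, and the other naringin libraries had higher ratios than any control. Per kilobase of exon, Cxcl9 was the more abundant ligand in the controls, at 20.2 against 6.42 CPM per kb for Cxcl10. Cxcl11 had 1 to 4 reads in each library, 8 in each group.

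Their receptor Cxcr3 stood at 40.0, 36.3 and 47.4 CPM in the controls, and at 35.8, 32.5 and 31.9 CPM with naringin. All 3 naringin values were below all 3 control values. The log2 fold was -0.29 ± 0.14 (SE; limma unadjusted p = 0.0696), and -0.19 without Control 3. The groups overlapped under TMM and median-of-ratios scaling. Of 7 T cell markers 6 had a lower mean with naringin and 0 passed the threshold. Their sums overlapped between groups in the ranges given above. Singly, 2 of the 7 markers, Cd4 and Cd5, were like Cxcr3 lower with naringin without overlap in CPM, where 2.29% of all genes tested were. In 0 of the 7 were the groups separated the other way, where 3.36% of all genes tested were. Whether Cd4 and Cd5 overlapped under TMM or median-of-ratios scaling was not computed. The log2 folds were -0.24 ± 0.12 for Cd4 and -0.40 ± 0.13 for Cd5 (SE). For Cd5 the limma unadjusted p was 0.0166 and the adjusted p 0.9996. Natural killer cell markers (7 genes) summed to 143 to 162 CPM in Control and 147 to 180 CPM with naringin. The part of either cell type in the level of Cxcr3 was not tested.

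**Figure D3:**
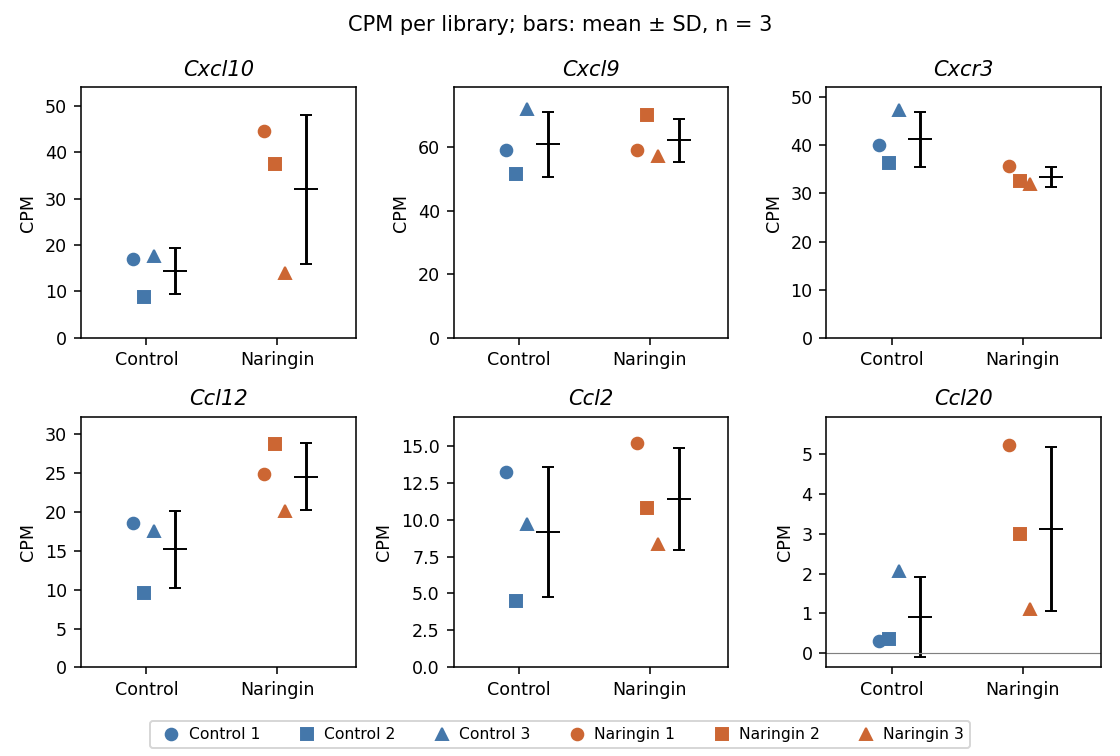
CPM (vertical axes from 0, with a small margin below 0 for Ccl20) of 6 genes in each library, with the mean and SD of each group of 3 as a bar beside the points. Cxcl10 and Ccl20 are spread widely among the naringin libraries, Cxcl9 and Ccl2 overlap between groups, and Ccl12 and Cxcr3 do not.

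Interferon inducers and response genes are given beside Cxcl10 as a list chosen with their earlier results known, so their direction is no independent support. Of its 20 genes 19 were tested, 17 had a higher mean with naringin (56.7% of all genes did), 0 passed the threshold, and 7 were higher at an unadjusted p under 0.05 (0.975% of all genes were), with a median log2 fold of 0.31 over the list. Counted over all the pathway lists, that 7 was 3 without Naringin 2, 4 without Naringin 1 and 12 without Naringin 3. Antiviral Rsad2 stood at 9.18, 6.36 and 7.48 CPM in the controls, and at 23.4, 28.6 and 9.11 CPM with naringin. Naringin 1 and 2 were above all controls and Naringin 3 within their range, as for Cxcl10. The 2 genes of the list with the smallest p were the nucleotide kinase Cmpk2 (log2 fold 0.79 ± 0.22) and the RNA sensor Oas2 (0.74 ± 0.21), in both of which Naringin 3 was also above every control. Type II interferon itself, Ifng, stood at 1.07, 1.23 and 1.54 CPM in the controls and at 0.536, 1.00 and 1.26 CPM with naringin, and Ifnb1 had 0 reads in every library. Irf1, a transcription factor induced by interferon, had a log2 fold of -0.0026.

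The bases before the transcription start of Cxcl10 and Cxcl9 are shown because these neighbouring interferon-induced ligands had unlike folds, together with those of Ccl12 and Ccl20, the other genes with an unadjusted p under 0.05. Each is the 250 bases upstream of the start, 5′ to 3′ on the gene's strand, from RefSeq on GRCm38.p6, an older build than the mm39 named in the submitters' processing notes. Capitals mark matches on either strand to a paired interferon regulatory factor motif (GAAA, then 2 bases of any kind, then GAAA), the NF-kB consensus, the AP-1 motif (TGANTCA) or the interferon gamma activated sequence (TTCNNNGAA).
Cxcl10, chr5:92348890-92349139, reverse strand: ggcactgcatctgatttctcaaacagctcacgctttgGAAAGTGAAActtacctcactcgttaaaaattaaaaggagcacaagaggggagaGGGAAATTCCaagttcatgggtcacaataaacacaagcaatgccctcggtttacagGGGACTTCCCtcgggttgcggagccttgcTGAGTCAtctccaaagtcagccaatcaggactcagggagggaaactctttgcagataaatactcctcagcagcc
Cxcl9, chr5:92328080-92328329, reverse strand: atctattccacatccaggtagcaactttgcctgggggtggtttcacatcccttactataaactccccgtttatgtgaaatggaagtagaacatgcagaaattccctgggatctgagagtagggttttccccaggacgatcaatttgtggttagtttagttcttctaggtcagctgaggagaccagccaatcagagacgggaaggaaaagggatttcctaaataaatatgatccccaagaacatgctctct
Ccl20, chr1:83116516-83116765, forward strand: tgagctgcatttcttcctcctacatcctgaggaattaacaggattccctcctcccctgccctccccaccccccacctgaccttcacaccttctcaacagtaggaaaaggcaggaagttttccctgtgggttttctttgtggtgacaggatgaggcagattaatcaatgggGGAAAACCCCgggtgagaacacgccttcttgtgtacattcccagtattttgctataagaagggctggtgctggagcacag
Ccl12, chr11:82101595-82101844, forward strand: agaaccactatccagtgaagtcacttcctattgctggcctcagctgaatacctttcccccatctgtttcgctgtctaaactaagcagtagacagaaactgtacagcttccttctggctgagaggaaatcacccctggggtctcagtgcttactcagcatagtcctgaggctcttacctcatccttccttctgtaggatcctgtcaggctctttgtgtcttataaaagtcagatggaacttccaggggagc

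In the Cxcl10 window, the interferon motif GAAAGTGAAA began 213 bases before the start, NF-kB matches 159 and 103 bases before it, and an AP-1 match 74 bases before it. The Ccl20 window held 1 NF-kB match, 80 bases before the start, and the Cxcl9 and Ccl12 windows held no match to these letters. Of 32851 promoter windows of this length, 2.98% held the interferon motif, 3.90% the NF-kB consensus, 6.75% the AP-1 motif and 7.02% the interferon gamma activated sequence. Promoter entries matched 27 of the 38 genes, of which 2 held the interferon motif (Cxcl10 and Cxcl14), 8 the NF-kB consensus, 5 AP-1 and 2 the interferon gamma activated sequence. The 27 are counted as genes, some with several windows, and the percentages as windows, so the figures are not like for like. The neutrophil chemokines Cxcl1, Cxcl2 and Cxcl3 had the same NF-kB letters, GGGAATTTCC, at 71, 97 and 73 bases before their starts. A match of letters describes the sequence and not the binding of a factor. Letters that differ from a motif by a single base were not counted, so a window without a match may hold near matches. Whether the motifs bear on the folds was not tested.

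Monocyte chemoattractants of the CCL2 group act on the receptor CCR2, which brings monocytes out of the bone marrow and into tissue. Ccl2, Ccl7, Ccl11, Ccl12, Ccl8 and Ccl1 follow each other on chromosome 11 with no other coding gene between them in RefSeq's GRCm38.p6. Ccl12 stood at 18.7, 9.54 and 17.5 CPM in the controls, and at 24.9, 28.7 and 20.1 CPM with naringin. All naringin libraries were above all controls. The means were 15.2 ± 4.97 and 24.6 ± 4.32 CPM (SD, n = 3 each), a ratio of 1.61 and a log2 fold of 0.69 ± 0.26 (SE; limma unadjusted p = 0.0259, adjusted p = 0.9996), and 0.41 without Control 2.

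Its neighbours were less regular. Ccl7 had means of 8.29 ± 3.77 and 13.0 ± 4.85 CPM and a log2 fold of 0.63 ± 0.34 (SE), which was 0.31 without Control 2 and 0.36 without Naringin 1. Ccl2 stood at 13.2, 4.48 and 9.69 CPM in the controls and at 15.1, 10.7 and 8.34 CPM with naringin, and its log2 fold of 0.36 was -0.028 without Control 2. The difference in Ccl2 thus rested on Control 2, its lowest library. Ccl12 reads per Ccl2 read came to 1.41, 2.13 and 1.81 in Control 1, 2 and 3, against 1.65, 2.67 and 2.41 in Naringin 1, 2 and 3. The groups overlapped on this measure.

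Ccl8, listed with the CCL2 group although in the mouse it acts mainly through another receptor, and per kilobase the most abundant of the 38 genes at 316 CPM per kb, followed another order. It stood at 112, 111 and 304 CPM in Control 1, 2 and 3, and at 216, 159 and 69.1 CPM in Naringin 1, 2 and 3. Control 3 was the highest library and Naringin 3 the lowest, and the summed macrophage markers had their highest and lowest values in the same libraries. This was not particular to macrophages. The summed neutrophil markers (280 and 48.8 CPM) and mast cell and basophil markers (6 genes; 353 and 29.2 CPM) were also highest in Control 3 and lowest in Naringin 3. The log2 fold of Ccl8, -0.22 ± 0.49 (SE), turned to 0.26 without Control 3 and to 0.25 without Naringin 3. Among the macrophage markers, the complement gene C1qa stood at 506 CPM in Control 3 and at 190 to 369 CPM in the other 5 libraries. Cd68, Lyz2, Ly6c2, Cd14 and Ms4a7 were also highest in Control 3. Csf1r, Adgre1, Fcgr1 and Mertk were instead highest in Naringin 1 (Csf1r at 435 CPM, against 394 CPM in Control 3). Lyz2 made up most of the sum, with 3503 of the 4977 CPM in Control 3. The part of macrophage, neutrophil or mast cell content in the level of Ccl8 was not tested. Because Ccl8 makes up most of the group's reads, the 4 ligands summed to 208 ± 114 and 197 ± 84.0 CPM (SD), although 3 of the 4 had a higher mean with naringin.

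The receptor Ccr2 stood at 93.4, 61.7 and 46.5 CPM in the controls and at 121, 77.3 and 54.3 CPM with naringin. The groups overlapped across most of their range, with a log2 fold of 0.30 ± 0.32 (SE), 0.070 without Control 3 and 0.0055 without Naringin 1. Ccr2 was lowest in Control 3, where Ccl8 and the sum of the monocyte and macrophage markers were highest.

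Ccl3, Ccl4, Ccl6 and Ccl9 are ligands that draw monocytes, macrophages and T cells through CCR1 and related receptors. They also follow each other on chromosome 11. Ccl6, which is made by macrophages and other myeloid cells, stood at 23.1, 6.43 and 16.4 CPM in the controls and at 37.3, 19.0 and 11.5 CPM with naringin. Ccl9 stood at 30.2, 11.9 and 21.1 CPM and at 35.8, 26.0 and 21.4 CPM. In both genes Naringin 1 was the highest library and Control 2 the lowest. The log2 folds of 0.54 ± 0.50 for Ccl6 and 0.44 ± 0.32 for Ccl9 (SE) were 0.052 and 0.098 without Control 2, and 0.11 and 0.25 without Naringin 1. Ccl4, made by activated T cells, natural killer cells and macrophages, had the lowest log2 fold of the 27 genes, -0.31 ± 0.24 (SE), from means of 2.46 ± 0.780 and 1.78 ± 0.541 CPM. Without Control 1 it was -0.13, nearer to 0 than that of Cxcr3 (-0.31). Ccl3 had 23 reads in the controls and 32 with naringin, 5 to 17 in a library.

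The receptors Ccr1, Ccr3 and Ccr2 lie in a run on chromosome 9, with 1 other coding gene between Ccr1 and Ccr3, and the means of all 3 were higher with naringin, with no call. Ccr1, a receptor of monocytes and neutrophils, stood at 5.43, 2.46 and 2.41 CPM in the controls and at 10.3, 4.81 and 3.78 CPM with naringin. Control 1 lay above Naringin 2 and 3. Its log2 fold was 0.68 ± 0.38 (SE; limma unadjusted p = 0.105), and 0.32 without Naringin 1. Cx3cr1, the fractalkine receptor of monocytes and macrophages, differed by 0.014 ± 0.21 and changed sign under upper-quartile and median-of-ratios scaling, to -0.028 and -0.0054.

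Ccr3, the eotaxin receptor of eosinophils, was too low for the test, with 5, 5 and 3 reads in Control 1, 2 and 3, and 18, 16 and 10 in Naringin 1, 2 and 3. The lowest naringin library was above the highest control. This was so in 2.13% of the 13854 genes with a read and a mean under 1 CPM, and the reverse order, which none of the 11 low genes had, in 3.20%. Allowing for depth, the naringin reads were 3.21 times the control reads (95% exact interval 1.70 to 6.49, from counting error alone). Without the filter on low values its log2 fold was 0.59 ± 0.19 (SE; limma unadjusted p = 0.00874, adjusted p = 0.9998). Eosinophil markers summed to 20.6 to 24.9 CPM in Control and 21.3 to 25.9 CPM with naringin (6 genes). Of these the defining markers Siglecf and Epx had at most 8 and 9 reads in a library and Ear1 at most 1. The eotaxin Ccl11 stood at 6.73, 7.23 and 10.2 CPM in the controls and at 11.3, 5.81 and 3.78 CPM with naringin, a log2 fold of -0.28 ± 0.34 (SE) that turned to 0.034 without Naringin 3. Ccl24, a further eotaxin, had 19 reads in the controls and 7 with naringin, a ratio of 0.349 with an exact interval of 0.124 to 0.867. This interval too covers counting error alone, and the groups overlapped, with 7, 7 and 5 reads in Control 1, 2 and 3 and 1, 6 and 0 in Naringin 1, 2 and 3. Without the filter its log2 fold was -0.35 ± 0.17 (SE; limma unadjusted p = 0.0562).

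Ccl20, the ligand of CCR6 and a chemoattractant for B cells, dendritic cells and type 17 helper T cells, had 4, 5 and 31 reads in Control 1, 2 and 3, and 78, 45 and 16 in Naringin 1, 2 and 3. Its levels were 0.306, 0.361 and 2.07 CPM, and 5.23, 3.00 and 1.12 CPM. Naringin 3 lay below Control 3, and the other naringin libraries above every control. The log2 fold was 1.09 ± 0.46 (SE; limma unadjusted p = 0.0430, adjusted p = 0.9996), 1.88 with a pseudocount of 0.1 CPM, and from 0.73 without Naringin 1 to 1.50 without Naringin 3. The value understates the change of so low a gene, whose means differed 3.41-fold. Ccr6 itself, a receptor of B cells, was the most abundant receptor per kilobase at 45.3 CPM per kb. It stood at 109, 117 and 61.1 CPM in the controls and at 105, 130 and 108 CPM with naringin. Only Control 3 was low, and the log2 fold of 0.30 ± 0.24 (SE) was 0.0085 without it.

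Neutrophil-attracting chemokines with the ELR motif were among the low genes. Cxcl1 lay between 1.45 and 2.10 CPM in Control and 1.68 and 3.15 CPM with naringin (log2 fold 0.20 ± 0.23). Cxcl5 was lowest in Naringin 3, at 0.210 CPM, and highest in Naringin 1, at 2.21 CPM, with a log2 fold of -0.045 ± 0.43. Cxcl2 had 12 reads in each group, and Cxcl3 had 7 and 6. Neutrophil markers (8 genes) summed to 54.7, 53.1 and 280 CPM in Control 1, 2 and 3, and 258, 147 and 48.8 CPM in Naringin 1, 2 and 3. Cxcl5 was also highest in Naringin 1 and Control 3; the part of neutrophil content in it was not tested. The receptor Cxcr1 had 15 and 20 reads in the groups.

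Of the ligands anchored in the membrane, Cxcl16, which is made by macrophages and dendritic cells, was abundant at 37.2 CPM per kb. It stood at 130, 89.6 and 148 CPM in the controls and at 108, 106 and 92.8 CPM with naringin, a log2 fold of -0.23 ± 0.19 (SE). Control 2 lay below all naringin libraries and the other controls above them, so that the fold was -0.43 without Control 2 and -0.076 without Control 3. Fractalkine, Cx3cl1, lay between 1.87 and 4.82 CPM and differed by -0.062 ± 0.31. Xcl1, which natural killer and CD8 T cells make to attract cross-presenting dendritic cells, lay between 7.01 and 11.2 CPM in Control and inside that range, at 7.64 to 8.55 CPM, with naringin (log2 fold -0.16 ± 0.20).

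Lymphocyte receptors other than Cxcr3 and Ccr6 differed by less than their standard error. Ccr9, the gut-homing receptor, had a log2 fold of 0.11 ± 0.29, Ccr4, a receptor of type 2 helper and regulatory T cells, of -0.11 ± 0.17, and Ccr10, a skin- and mucosa-homing receptor, of -0.13 ± 0.23. The epithelial ligand Ccl27a was the steadiest of the 27 genes, with 4.47 to 5.58 CPM over the 6 libraries. The gut ligand Ccl25 had means of 3.23 ± 1.48 and 2.43 ± 0.488 CPM and a log2 fold of -0.24 ± 0.30, or -0.58 without Control 3. Of the remaining low genes, Ccl28 had 10 reads in the controls and 2 with naringin (ratio 0.190, exact interval 0.0202 to 0.890 from counting error alone). Its groups overlapped, with 4, 5 and 1 reads in Control 1, 2 and 3 and 0, 1 and 1 in Naringin 1, 2 and 3. Ccl1 had 26 and 14, Cxcl14 had 16 and 13, and Cxcl17 had 6 and 2.

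**Figure D4:**
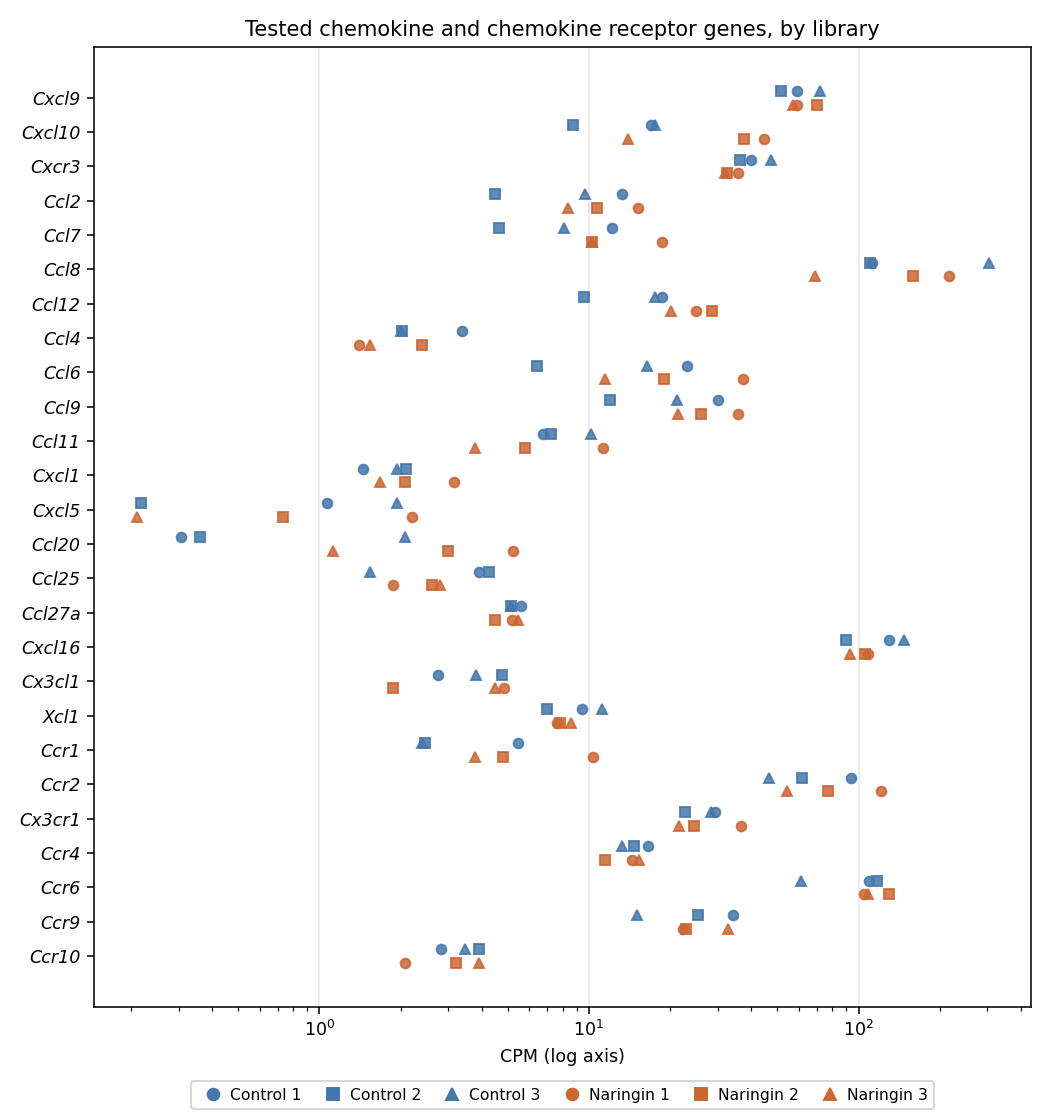
CPM on a log axis for 26 of the tested genes in each of the 6 libraries, Control in blue and Naringin in orange, ordered by ligand and receptor group. Ccl8, Cxcl16, Ccr6 and Ccr2 reach about 100 CPM or more, Ccl20 and Cxcl5 fall below 1 CPM in some libraries, and the colours are separated only for Ccl12 and Cxcr3.

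Beyond the ligands and receptors, the wider chemokine pathway gave no call. The list of atypical receptors, which take up chemokines without G protein signalling, also holds Ccrl2 and the chemerin receptor Cmklr1. Of its 6 genes Ackr1 had 0 reads and the other 5 had a higher mean with naringin. Their median log2 fold of 0.27 is the value of Cmklr1. Ackr2, a scavenger of inflammatory CC chemokines, stood at 2.91, 4.92 and 8.55 CPM in the controls and at 14.1, 6.41 and 4.97 CPM with naringin (log2 fold 0.53 ± 0.42), and Ackr3 at 0.48 ± 0.40. Lymphatic endothelial markers (5 genes, Ackr4 among them) summed to 83.7 to 150 CPM in Control and 74.1 to 248 CPM with naringin, with Naringin 1 highest, as for Ackr2. Their part in Ackr2 was not tested. Of 29 genes of receptor signalling and trafficking, 18 had a higher mean, where 56.7% of all genes tested did, with a median of 0.016. The smallest p belonged to the arrestin Arrb2 (-0.21 ± 0.13) and the G protein subunit Gnai3 (0.16 ± 0.12). Of 5 proteases that trim or shed chemokines 4 had a higher mean, with Adam17, which sheds fractalkine, at 0.34 ± 0.16 and Dpp4, which inactivates CXCR3 ligands, at 0.22 ± 0.16. The NF-kB list had 8 of 13 tested genes higher and a median of 0.0081. Its leading genes were the cytokine Il1b (0.67 ± 0.33) and the subunit Rela (-0.23 ± 0.12). Of the platelet chemokines, Pf4 had a log2 fold of -0.41 ± 0.44 and Ppbp was below the filter. Over all 5 of these lists limma called 0 genes and had 0 at an unadjusted p under 0.05.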

How the data were processed

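RNA from 6 lymph node samples had been purified with an RNeasy kit and sequenced from NEBNext Ultra libraries, per the labels' protocols. Per the submitters' processing notes, reads were handled with STAR 2.7.9a, Trimmomatic 0.39, edgeR 3.40.0 and featureCounts (Subread 1.6.0) on build mm39, in an order not listed. The annotation, strand setting and treatment of reads shared by paralogs were not given in the sources used here. How many reads were shared among related genes (Ccl2, Ccl7 and Ccl12, Ccl6 and Ccl9, Ccl27a and its copies, Cxcl1 to Cxcl3) is therefore not known. Levels of these genes, and of overlapping or antisense genes, are uncertain to that extent. The authors deposited CPM, which summed to 1000000 in each library. Table columns are numbered, and were matched to the leading numbers of the sample titles. Of the values above 0, 100% were whole multiples of 1 read within 0.01 of a read, and 1 read was worth 0.0668 to 0.0765 CPM.

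Genes averaging 1 CPM or more were tested with limma 3.58.1 in R 4.3.3 on log2(CPM + 1), with a mean-variance trend, robust moderation, 2-sided p-values and Benjamini-Hochberg adjustment over 14873 genes. Fold changes are on that scale and understate low genes. Recovered reads were tested with DESeq2 1.42.0 and with the quasi-likelihood test of edgeR 4.0.16 after TMM scaling. Each procedure was also run on simulated data, whose outcome is not given here. CPM per kilobase used GENCODE M21 exon lengths. The genes named are 37 of the 38, in full for those with the smallest p and the leading ones of each role, and from each pathway list the 2 genes of smallest p. Irf1, Ifng, Ifnb1, Rsad2, Ackr4, Ppbp and single markers were chosen after their values were seen. Values of 2 genes, 1 of the 38 and 1 of a pathway list, enter the counts and sums but are not reported here. The genes and lists were chosen with earlier results of these data known. The alternatives were other pseudocounts, filters, scalings and tests, a replicate block, and leaving out each library.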

Additional observations from a re-analysis of the deposited data

How the results depend on the processing

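At the adjusted threshold, 0 of the 27 chemokine genes were called with all libraries, in 6 leave-outs and under 11 other alternatives, and 0 pathway genes in the leave-outs, under TMM scaling, with the replicate block and by edgeR. Over all genes tested, DESeq2 called 3, and leaving out single libraries gave 0 to 1. The count of chemokine genes higher at an unadjusted p under 0.05, 3 with all libraries, was 1 with a filter at 5 CPM and 0 to 5 in the leave-outs. The count lower at that p, 0 with all libraries, was 1 with no filter (Ccl28) and 0 to 2 in the leave-outs. Genes with every naringin value above the controls, 1 with all libraries, were 2 with no filter (Ccr3 added) and 1 to 4 in the leave-outs. Genes with every value below, 1 with all libraries, were 0 under TMM and 0 under median-of-ratios scaling, and 1 to 3 in the leave-outs. The share over all genes was not computed for the scalings and leave-outs, so these counts cannot be set against it. With a library left out, groups also separate more easily. The median log2 fold of the 27 genes ran from -0.051 without Control 2 to 0.25 without Naringin 3. Of 26 folds, 15 kept their sign under every alternative and 11 changed it in a leave-out. Those 11 ran from -0.28 to 0.055 for Ccr10, -0.56 to 0.26 for Ccl8, -0.64 to 0.034 for Ccl11, -0.028 to 0.66 for Ccl2, -0.19 to 0.37 for Ccr9, -0.20 to 0.16 for Cx3cr1, -0.18 to 0.0083 for Ccr4, -0.25 to 0.26 for Cx3cl1, -0.075 to 0.16 for Cxcl9, -0.43 to 0.28 for Cxcl5 and -0.11 to 0.0059 for Ccl27a. With other scalings, Cx3cr1 was -0.028 (upper-quartile) and -0.0054 (median-of-ratios), and Cxcl9 -0.0059 (upper-quartile). Same-numbered libraries did not deviate together: their deviations correlated at -0.26, -0.019 and -0.27 over genes, and those of unlike-numbered libraries at -0.13 to 0.31. With 3 libraries in each group these values depend on each other and cannot exclude a pairing. With the replicate block, limma called 0 chemokine genes and had 2 higher at an unadjusted p under 0.05, Ccr1 and Ccl7. Neither is among the 3 at that level without the block (Ccl12, Cxcl10 and Ccl20), and none of those 3 reached it with the block. Over all pathway lists, 7 genes higher at an unadjusted p under 0.05 became 3 to 12 in the leave-outs. The cause of these changes was not tested. Depth limits the 11 low genes most: for 8 of them the counting interval of the ratio includes 1.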
